A study of Arabidopsis thaliana with 4 samples.

Results

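The genes described here encode the translation elongation factors of the cytosol and of the plastid in *Arabidopsis thaliana*. They are 8 of the 36632 gene rows counted in the series: 4 copies of eEF1A (AT1G07920, AT1G07930, AT1G07940 and AT5G60390), eEF2 (AT1G56070, *LOS1*), plastid EF-Tu (AT4G20360, *RABE1b*), a noncoding row on the strand opposite EF-Tu (AT4G20362), and plastid EF-G (AT1G62750, *SCO1*). The list is of gene identifiers, chosen by function and selected on the read counts of these same libraries, whose levels and genotype differences were known. Both are therefore given as a description, and the p-values printed beside them support nothing further. RNA-seq was performed on *jmj26*, a T-DNA insertion line of the jmjC gene *JMJ26* in the Col-0 background, and on Col-0, the wild type, with 2 libraries each. Rosettes at the 9-leaf stage were used, from plants kept cold (4°C) in the dark for 2 days and then raised on soil at 21°C under long days of 16 h. Neither genotype received a treatment, and poly(A) RNA was sequenced with a kit that keeps the strand. Per the study's methods rosettes were collected plant by plant, but the labels do not tie the libraries of a genotype to plants, and the deposited table of *jmj26* replicate 2 carries a number in its header that the remaining libraries do not, with no stated meaning. All p-values therefore measure only the spread between these libraries.

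Translation elongation adds amino acids to the growing peptide in a cycle driven by GTP. In the cytosol eEF1A brings the aminoacyl-tRNA to the ribosome and eEF2 then moves the ribosome by 1 codon, while in the plastid EF-Tu and EF-G carry out the same steps on ribosomes of bacterial type. Both plastid factors are encoded in the nucleus and imported. In leaves the plastid machinery makes, among others, the large subunit of Rubisco and core proteins of the photosystems, and the cytosolic machinery makes nearly everything else. Genes of eEF1A are widely used as reference genes for plant expression studies.

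The coding sequences were read from the RefSeq TAIR10.1 assembly, and they are shown because the counting had to assign reads among near-identical copies. The 4 eEF1A copies each had 1350 coding bases and encoded the same protein, with 0 differences between their translations. AT1G07920 and AT1G07940 differed at 6 coding bases, and AT1G07930 differed from them at 16 and 15. AT5G60390 was the most distant copy, with 83 differences from AT1G07920, a coding identity of 93.9%. Among all 4 copies 90 positions varied. Coding bases 34 to 93 hold 10 of them, the most in any stretch of 60 bases, written here in capitals.
AT1G07920, chr1:2455592-2455651, plus strand: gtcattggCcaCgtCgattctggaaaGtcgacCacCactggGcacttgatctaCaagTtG
AT1G07930, chr1:2459047-2459106, plus strand: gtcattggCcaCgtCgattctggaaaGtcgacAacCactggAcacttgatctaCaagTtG
AT1G07940, chr1:2464700-2464759, minus strand: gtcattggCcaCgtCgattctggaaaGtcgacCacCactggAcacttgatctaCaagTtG
AT5G60390, chr5:24289259-24289318, plus strand: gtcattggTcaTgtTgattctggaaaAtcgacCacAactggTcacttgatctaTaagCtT
In this stretch the copies on chromosome 1 differed from each other at 2 of the capitals, whereas AT5G60390 had a base of its own at 9.

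The 4 kinds of factor are GTPases and share the P-loop, the motif that binds the phosphates of GTP. It was located in the translation as alanine or glycine, any 4 residues, glycine, lysine, and serine or threonine, and the first match was taken where EF-Tu had 2. Its 24 bases are in capitals in the coding strand of 1 gene of each kind, and the last line gives the EF-Tu window as the opposite strand, on which AT4G20362 lies, reads it.
AT5G60390, eEF1A, residues 14 to 21 of 449, chr5:24289247-24289306, plus strand: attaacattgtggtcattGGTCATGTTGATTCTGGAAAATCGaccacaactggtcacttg
AT1G56070, eEF2, residues 26 to 33 of 843, chr1:20970660-20970940, minus strand, joined across an intron: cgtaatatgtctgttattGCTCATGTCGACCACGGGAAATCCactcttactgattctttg
AT4G20360, EF-Tu, residues 86 to 93 of 476, chr4:10990273-10990332, plus strand: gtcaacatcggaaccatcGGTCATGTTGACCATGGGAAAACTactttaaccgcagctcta
AT1G62750, EF-G, residues 103 to 110 of 783, chr1:23235785-23235844, minus strand: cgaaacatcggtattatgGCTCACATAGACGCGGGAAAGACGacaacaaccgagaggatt
AT4G20362, chr4:10990273-10990332, minus strand: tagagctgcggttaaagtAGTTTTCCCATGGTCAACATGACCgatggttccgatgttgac
The motif lies further into the plastid proteins, which begin with the peptide that directs them into the plastid. The EF-Tu window lies wholly inside the exons of AT4G20362, so that the strand alone tells reads of the 2 rows apart there.

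The libraries held 1998601 and 1497105 counts in *jmj26*, against 1022041 and 740909 in Col-0, and a floor of 3 counts was 1.501 to 4.05 CPM (counts per 1000000 of a library total). Gene rows with an annotated gene opposite them held 92.4% and 92.5% of the gene counts in *jmj26*, against 95.7% and 94.5% in Col-0. Which strand was counted is not given in the sources used here, and whether the rows of eEF1A, eEF2, EF-Tu and EF-G hold the mRNA of these genes was not tested. Among tested rows the median log2 fold change (*jmj26* relative to Col-0) was 0.61 for the 1343 rows without an opposite-strand gene and -0.031 for the 3889 rows with one. The rows without one lay higher in *jmj26* as a class, and the part of this shift in the values below was not tested. The 9 leaf markers (Rubisco small subunits, chlorophyll-binding proteins and Rubisco activase) were counted in every library, with sums of 1078 and 1006 CPM in *jmj26* and 243 and 534 CPM in Col-0. All 9 had fitted log2 fold changes from 0.94 to 2.08, and 0 of them had FDR < 0.05. This compares with 0.0573% of all 5232 tested gene rows (3 rows). Of the leaf markers 8 had both *jmj26* libraries above both Col-0 libraries, an order found in 28.8% of all tested rows. Most of these markers have no opposite-strand gene, and among tested rows of that kind the order was found in 52.5%. Flower markers had 0 counts in every library, and 4 of 8 seed markers had 0 everywhere and the others at most 5. The targeted gene *JMJ26* (AT1G11950) had 0 and 2 counts in *jmj26* and 1 and 0 in Col-0, too few to check the genotype labels.

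Almost all counts of the plastid EF-Tu locus lay on the noncoding row. AT4G20362, annotated as a long noncoding RNA on the minus strand of chromosome 4 from 10989908 to 10992242, had 62207 and 45762 counts in *jmj26*, against 31357 and 22973 in Col-0. As a share of the library these were 31125 and 30567 CPM in *jmj26* and 30681 and 31006 CPM in Col-0, so the genotypes overlapped and their means, 30846 ± 395 CPM in *jmj26* and 30844 ± 230 CPM in Col-0 (SD, n = 2 each), differed by less than the spread between replicates. The fitted log2 fold change was -0.038 (standard error 0.093). It ranked 2 or 3 among the gene rows of each library, with 3.72% to 3.96% of all gene counts. The remaining elongation factor rows had at most 230 counts.

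EF-Tu itself (AT4G20360), on the plus strand from 10989910 to 10992509, had 230 and 138 counts in *jmj26*, against 13 and 40 in Col-0. In CPM these were 115 and 92.2 in *jmj26* and 12.7 and 54.0 in Col-0, and both *jmj26* libraries lay above both Col-0 libraries. The fitted log2 fold change was 1.68 (standard error 0.50). It depended on which Col-0 library was used: without Col-0 replicate 1 it was 0.75, and without Col-0 replicate 2 it was 2.91. The noncoding row had 270 and 332 times the counts of the EF-Tu row in *jmj26*, and 2412 and 574 times in Col-0. Of the 1925 exon bases of EF-Tu, 1758 (91.3%) are also exon bases of AT4G20362, so over the same stretch of DNA few reads were counted to the coding row and many to the noncoding one. Whether the reads of AT4G20362 come from EF-Tu transcripts counted on the opposite strand or from a noncoding RNA was not tested. The upstream gene AT4G20350, which overlaps AT4G20362 by 40 bases, had at most 1 count in any library.

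**Figure D1:**
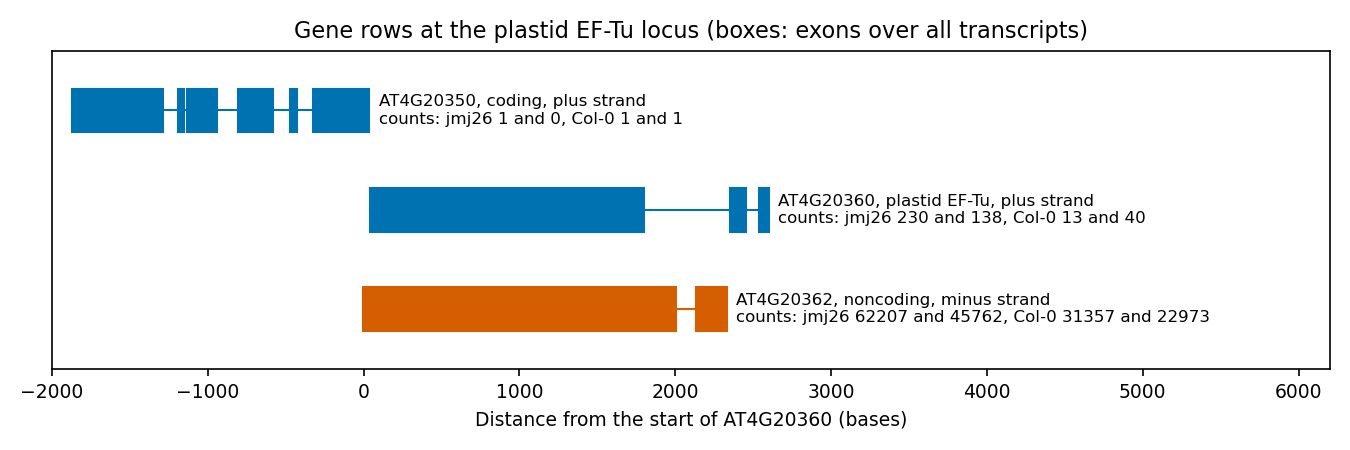
Map of the gene rows at the plastid EF-Tu locus, with the distance in bases from the annotated start of AT4G20360 on the horizontal axis, boxes for exons and the counts of each library beside each row. The noncoding row spans most of the EF-Tu gene on the other strand and holds 62207 and 45762 counts in *jmj26* against 230 and 138 for EF-Tu.

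The coding row held 0.368% of the counts of the EF-Tu locus (95% Wilson interval 0.324 to 0.419) in *jmj26* replicate 1 and 0.301% (0.255 to 0.355) in *jmj26* replicate 2, against 0.0414% (0.0242 to 0.0709) in Col-0 replicate 1 and 0.174% (0.128 to 0.237) in Col-0 replicate 2. The intervals cover counting error only. Those of the Col-0 libraries did not overlap each other, and none of them reached those of *jmj26*. The mean noncoding share was 99.7% in *jmj26* and 99.9% in Col-0, a difference of -0.227 percentage points (two-sided exact permutation test, p = 0.3333, the smallest that 2 against 2 libraries allow). To place this locus among others, 79 loci were taken with a coding gene, a noncoding row over at least 50% of its exon bases on the opposite strand, and at least 1000 counts in all, a choice made after the values were seen. In 66 of them the coding row held under 50% of the counts in every library. The EF-Tu locus had the second most counts of the 79, after the chlorophyll-binding protein gene AT2G34420 with AT2G08665. Its coding share ranked eighth and seventh from the lowest in *jmj26*, and sixth and sixth in Col-0, where the medians were 6.45% and 6.60% in *jmj26* and 5.94% and 5.88% in Col-0. Of the 79 loci 41 had a higher mean coding share in *jmj26*, and in 15, EF-Tu among them, both *jmj26* libraries lay above both Col-0 libraries.

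**Figure D2:**
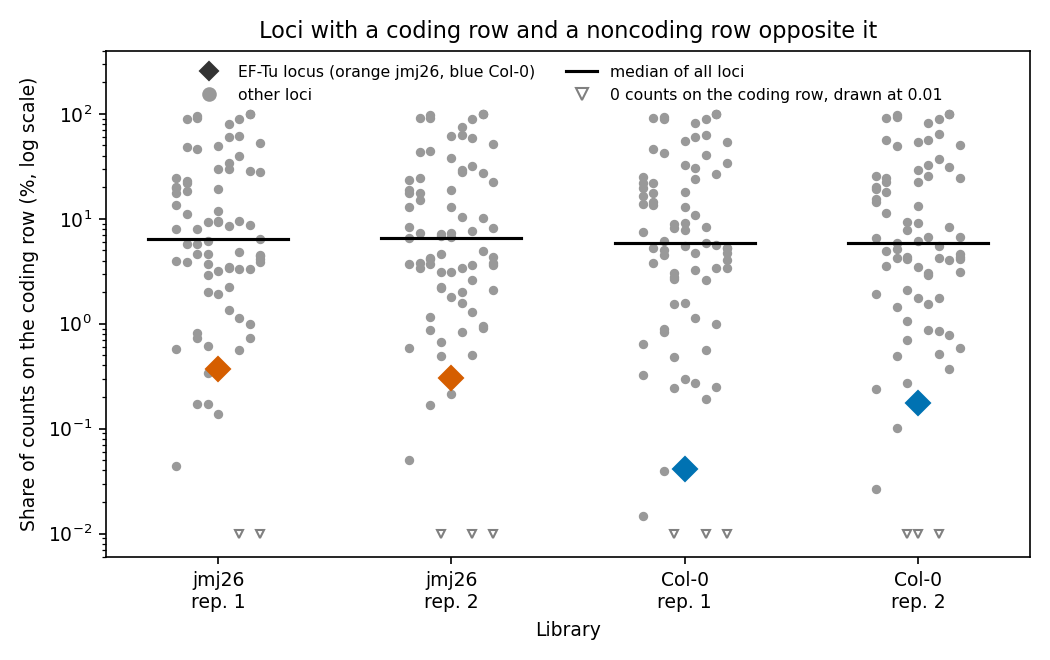
Share of counts on the coding row, in percent on a log scale, at 79 loci with a noncoding row on the opposite strand, by library, with jmj26 left of Col-0. Diamonds mark the EF-Tu locus, which sits between 0.0414% and 0.368%, well under the median of all loci (black bars), and triangles mark loci with 0 counts on the coding row.

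Plastid EF-G (AT1G62750, *SCO1*), which moves the plastid ribosome along and whose mutants have pale cotyledons, lies on the minus strand of chromosome 1 from 23233434 to 23236447. It had 150 and 97 counts in *jmj26*, against 61 and 51 in Col-0. These were 75.1 and 64.8 CPM in *jmj26* and 59.7 and 68.8 CPM in Col-0, and the genotypes overlapped. The log2 fold change was 0.094 (standard error 0.20), which is below that of the EF-Tu coding row, although the difference between the genes was not tested. At its 3′ end 110 exon bases overlap *HOP2* (AT1G62740), a co-chaperone gene on the plus strand. *HOP2* had 929 and 908 counts in *jmj26* and 522 and 400 in Col-0, with a log2 fold change of -0.0095 (standard error 0.17). Both genes of this pair thus had overlapping genotypes, the pattern of the noncoding row and not of the EF-Tu coding row.

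The eEF1A rows had at most 179 counts each, with the doubt about the counted strand given above. AT5G60390, on chromosome 5 from 24288596 to 24291020, was the highest, with 179 and 133 counts in *jmj26*, against 4 and 17 in Col-0. In CPM it had 89.6 and 88.8 in *jmj26*, which agreed closely with each other, and 3.91 and 22.9 in Col-0, which did not. Its exons overlap those of AT5G60400 on the opposite strand by 28 bases, and AT5G60400 had 18 and 10 counts in *jmj26* and 9 and 8 in Col-0. The remaining copies have no gene opposite them and lie within 10.8 kb of each other on chromosome 1. AT1G07920 (2454771 to 2457321) had 20 and 12 counts in *jmj26* and 1 and 0 in Col-0, where 0 counts allow up to 4.05 CPM. AT1G07930 (2458184 to 2460817) had 27 and 9 counts in *jmj26* and 0 and 4 in Col-0, where 0 counts allow up to 2.94 CPM. AT1G07940 (2462949 to 2465545) had 9 and 11 counts in *jmj26* and 1 and 3 in Col-0. Each copy thus had both *jmj26* libraries above both Col-0 libraries in CPM, although the margin was small for AT1G07930, at 6.01 CPM in *jmj26* replicate 2 and 5.40 CPM in Col-0 replicate 2, and for AT1G07940, at 4.50 CPM in *jmj26* replicate 1 and 4.05 CPM in Col-0 replicate 2.

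With so few counts in Col-0, the copies on chromosome 1 were compared by counts pooled over the libraries of each genotype. Their ratios were scaled by the pooled library totals, with exact intervals for counting error only. The ratio of *jmj26* over Col-0 was 16.1 (95% interval 2.696 to 657) for AT1G07920, 4.54 (1.63 to 17.6) for AT1G07930 and 2.52 (0.845 to 10.1) for AT1G07940. The intervals overlapped, so a difference between these copies was not detectable at this depth. AT5G60390 had a fitted log2 fold change of 2.82 (standard error 0.51), with 1.77 without Col-0 replicate 1 and 4.38 without Col-0 replicate 2. The 4 copies summed had 235 and 165 counts in *jmj26*, against 6 and 24 in Col-0, or 118 and 110 CPM in *jmj26* and 5.87 and 32.4 CPM in Col-0. A read divided among the copies enters this sum whole, but whether reads that match several copies were left out or counted more than once was not tested. Its log2 fold change was 2.65 (standard error 0.51, edgeR quasi-likelihood test, Benjamini-Hochberg adjusted p = 0.109 over all gene rows). Without Col-0 replicate 1 it was 1.62 (adjusted p = 0.0347) and without Col-0 replicate 2 it was 4.15 (adjusted p = 0.00026), from the same edgeR test, and over all alternatives the adjusted p ran from 2.6e-15 to 0.519. The Col-0 libraries thus moved both the size and the call.

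AT5G60390 held 76.2% (95% Wilson interval 70.3 to 81.2) and 80.6% (73.9 to 85.9) of the eEF1A counts in *jmj26*, against 66.7% (30.0 to 90.3) and 70.8% (50.8 to 85.1) in Col-0. The intervals of the genotypes overlapped, and the mean shares differed by 9.64 percentage points (two-sided exact permutation test, p = 0.3333, the smallest possible). It was the leading copy in 4 of 4 libraries, and also per kb of exon, where its share was 72.9% and 78.6% in *jmj26* and 64.7% and 68.8% in Col-0. AT5G60390 is also the copy most easily told apart by its sequence. Of the stretches of 75 bases in its exons, 1.87% occurred unchanged in another copy, against 62.3% for AT1G07920, 45.1% for AT1G07940 and 33.3% for AT1G07930. The order of the chromosome 1 copies was not the same in every library, and their shares cannot be read as those of their transcripts, since reads that match several copies could have been divided among them.

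eEF2 (AT1G56070, *LOS1*), which translocates the cytosolic ribosome and is known for a mutant with altered responses to cold, lies on the minus strand of chromosome 1 from 20967652 to 20971742 with no gene opposite it. It had 110 and 54 counts in *jmj26*, against 2 and 17 in Col-0, which were 55.04 and 36.1 CPM in *jmj26* and 1.96 and 22.9 CPM in Col-0. All *jmj26* values lay above those of Col-0, and the Col-0 libraries were again far apart. The log2 fold change was 1.99 (standard error 0.68), with 0.80 without Col-0 replicate 1 and 4.38 without Col-0 replicate 2. When rows without an opposite-strand gene were fitted alone, an alternative chosen after seeing the data, it was 1.51 (standard error 0.64), with a median of -0.11 over the rows of that fit.

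**Figure D3:**
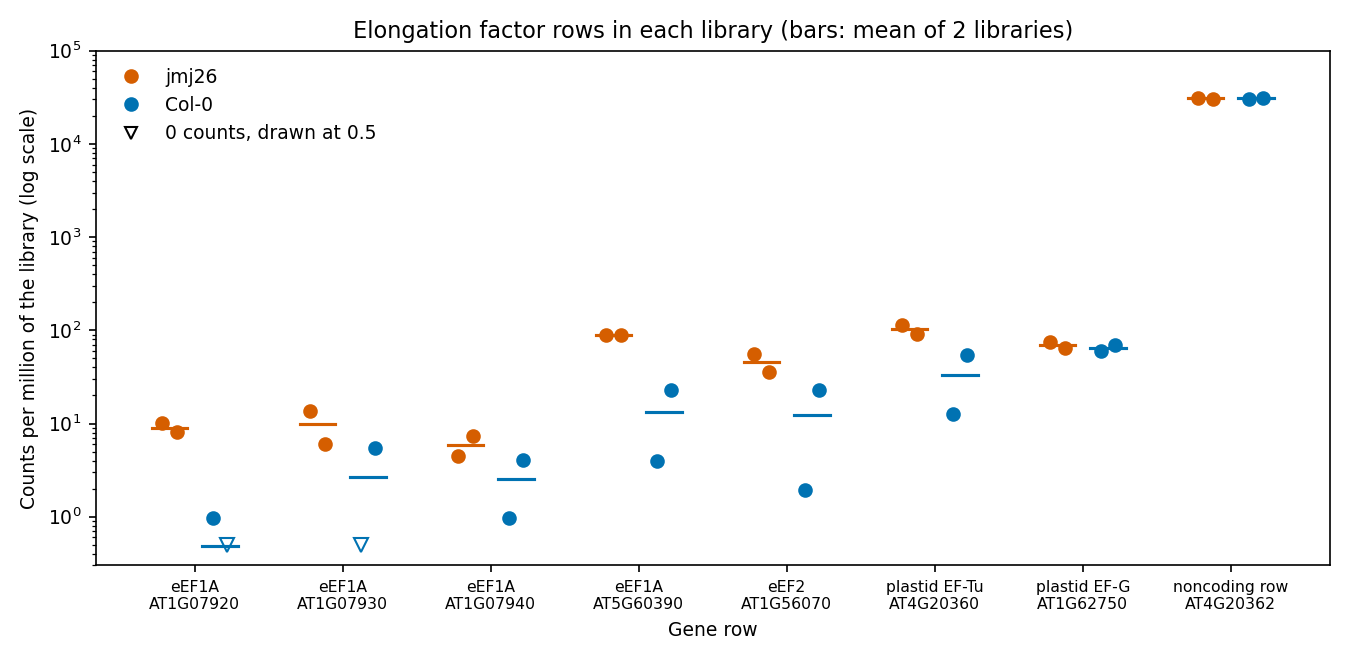
CPM, on a log scale, for the 8 elongation factor rows in each library, with jmj26 left of Col-0, points for libraries and bars for the mean of 2. The noncoding row opposite EF-Tu stands near 30846 CPM in both genotypes, EF-G overlaps between them, and the eEF1A, eEF2 and EF-Tu coding rows are higher in jmj26, with Col-0 libraries that differ from each other.

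Of the 8 rows, 6 entered the test across all gene rows, and 0 of them had FDR < 0.05 in edgeR's quasi-likelihood test, with 4 at an unadjusted p below 0.05, a level reached by 15.7% of all tested rows. Over all 5232 tested rows 3 were called, which is 0.0573%, with 0.0382% higher and 0.0191% lower in *jmj26*. Without Col-0 replicate 1 the test called 1 of 8 elongation factor rows and 0.448% of all 6691 rows then tested, and without Col-0 replicate 2 it called 4 of 8 and 6.65% of 6692. In DESeq2's Wald test 1 of 8 elongation factor rows, AT5G60390, was called, against 13 of all 22317 gene rows fitted. AT1G07930 and AT1G07940 had too few counts to be tested. AT1G07920, AT5G60390 and eEF2 passed the filter on low counts, which asked for 2 libraries, with both *jmj26* libraries and at most 1 of Col-0, so the higher values in *jmj26* brought them into the test. In 6 of the 8 rows, the 4 eEF1A copies, eEF2 and EF-Tu, both *jmj26* libraries lay above both Col-0 libraries. The same held for 28.8% of all tested rows, and for 52.5% of tested rows without an opposite-strand gene and 20.6% of those with one. AT1G07930 and AT1G07940 are among the 6 but, being untested, not in these percentages. In these bulk samples, fewer cells of a type and less RNA per cell cannot be told apart. The genotypes overlapped in the noncoding row and EF-G.

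Per kb of exon, the order of mean counted levels, which may not be the order of the mRNAs given the unstated strand, was in *jmj26* the noncoding row (13983 ± 179 CPM per kb, SD, n = 2 here and below), EF-Tu (53.8 ± 8.41), AT5G60390 (38.4 ± 0.22), EF-G (26.2 ± 2.72), eEF2 (12.02 ± 3.54), AT1G07930 (5.15 ± 2.80), AT1G07920 (4.85 ± 0.76) and AT1G07940 (2.37 ± 0.80). AT1G07930 did not differ from its neighbour AT1G07920, nor from AT1G07940, beyond its spread. In Col-0 the order was the noncoding row (13982 ± 104 CPM per kb), EF-G (24.1 ± 2.43), EF-Tu (17.3 ± 15.2), AT5G60390 (5.78 ± 5.79), eEF2 (3.29 ± 3.92), AT1G07930 (1.43 ± 2.02), AT1G07940 (1.004 ± 0.87) and AT1G07920 (0.26 ± 0.37). There the noncoding row alone stood apart, and each further neighbour in the order lay within the spread between the Col-0 libraries. These libraries are shared by all rows, and within each of them EF-Tu lay above AT5G60390 and AT5G60390 above eEF2. Plastid rows (EF-Tu, EF-G and the noncoding row) held 99.5% and 99.5% of the elongation factor counts in *jmj26*, against 99.97% and 99.8% in Col-0, a share set by the noncoding row. Without that row the plastid share was 52.4% (95% Wilson interval 48.8 to 56.0) and 51.8% (47.2 to 56.3) in *jmj26*, against 90.2% (81.9 to 94.97) and 68.9% (60.6 to 76.2) in Col-0. Both values of *jmj26* lay below both of Col-0 (two-sided exact permutation test, p = 0.3333, the smallest possible). Since the rows differ in their overlap with other genes, this is a share of counts and not of transcripts.

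The other factors of the same machinery were taken from a list by known function, 30 genes for elongation, initiation and release in the cytosol, plastid and mitochondrion. Of these 10 were tested, and 0 had FDR < 0.05 in either direction in edgeR's quasi-likelihood test, with 7 at an unadjusted p below 0.05, against 15.7% of all tested rows. Whether any were called depended on which Col-0 library was left out. All 6 tested genes without an opposite-strand gene had log2 fold changes above 0, from 1.30 to 2.68. Their median was 1.82, against 0.61 over all tested rows of that kind. Of these genes AT1G12920 (1 and 4 counts in Col-0) and AT1G18070 (2 and 2) passed the filter on low counts through *jmj26* alone. AT1G17220 (3 and 11) and AT5G08650 (3 and 8) reached its level in Col-0 replicate 2 only, so the higher values in *jmj26* brought them into the test as well. Among the genes with an opposite-strand gene the same held for AT1G26630 (8 and 11). How far the filter shaped these fold changes was not tested. Those with an opposite-strand gene had a median of -0.11 over 4 genes, against -0.031. Among the partners of eEF1A, the exchange factor subunit genes that reload it with GTP, AT5G12110 had the most counts, 709 and 480 in *jmj26* and 345 and 258 in Col-0. Its log2 fold change was -0.059 (standard error 0.14), against 2.65 for the summed eEF1A copies, and AT5G12120 lies opposite it. Of the 6 exchange factor genes 2 were tested. The other 4, with at most 11 counts in a library, each had both *jmj26* libraries above both Col-0 libraries. That order was found in 28.8% of all tested rows, which do not include these untested ones. Their Col-0 counts, from 0 to 2, lay under the floor of 3 counts, so the order is not resolved at this depth. The second eEF2 gene, AT3G12915, had 59 and 29 counts in *jmj26* and 43 and 18 in Col-0, with a log2 fold change of -0.49 (standard error 0.34). Unlike the first eEF2 gene it has a row opposite it, AT3G00300, over most of its length. That row had 280 and 148 counts in *jmj26* and 185 and 124 in Col-0, with a log2 fold change of -0.58 (standard error 0.19). AT1G26630 (*FBR12*), which encodes eIF5A, a factor that helps the ribosome through difficult peptide bonds, had 57 and 31 counts in *jmj26* and 8 and 11 in Col-0, with a log2 fold change of 1.15 (standard error 0.39).

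In the plastid, the exchange factor of EF-Tu, EF-Ts (AT4G29060), had 115 and 76 counts in *jmj26*, against 9 and 17 in Col-0. Its log2 fold change of 1.80 (standard error 0.39) stood beside 1.68 for the EF-Tu coding row. The initiation factor gene AT1G17220 (*FUG1*) had 76 and 50 counts in *jmj26* and 3 and 11 in Col-0, with a log2 fold change of 2.09 (standard error 0.52). Of the 4 release and recycling factor genes of the plastid 0 were tested, and AT3G57190 had the most counts, 13 and 11 in *jmj26* and 6 and 4 in Col-0. In the cytosol the release factor gene AT1G12920 (*ERF1-2*) had 50 and 19 counts in *jmj26* and 1 and 4 in Col-0, with a log2 fold change of 2.68 (standard error 0.69). Of the 5 mitochondrial elongation factor genes 0 were tested, and AT4G02930, mitochondrial EF-Tu, had the most counts, 9 and 7 in *jmj26* and 0 and 1 in Col-0.

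**Figure D4:**
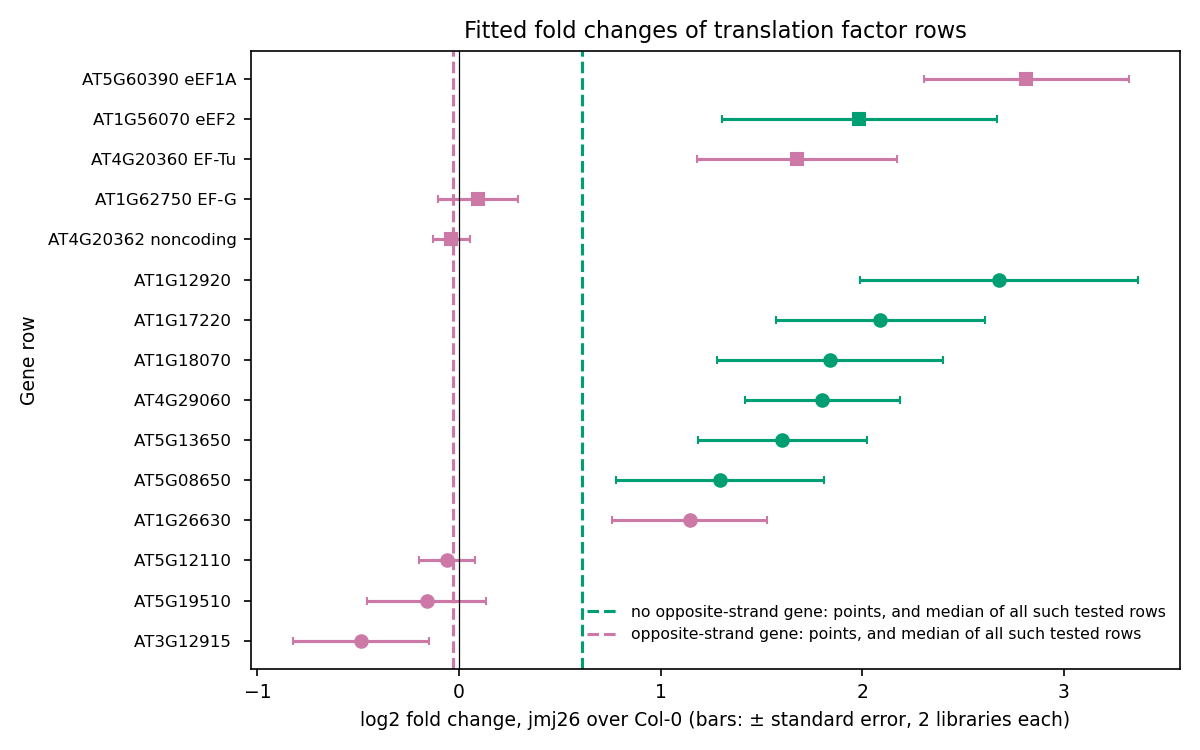
Fitted log2 fold changes, jmj26 relative to Col-0, with standard errors for the tested elongation factor rows (squares, AT1G07920 left out because Col-0 had 1 and 0 counts) and other translation factors (circles). Green rows have no gene on the opposite strand and pink rows have one, and dashed lines give the medians of all tested rows of each kind, 0.61 and -0.031. Overlaps of any length count, so pink covers AT5G60390 (28 exon bases), EF-G (110) and EF-Tu (91.3% of its exon bases) alike.

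By the distance of centred log2 CPM over the 4 libraries, the tested rows most like eEF2, out of 2637 of similar level, were AT1G11860 (distance 0.17), *HPR* (AT1G68010, 0.21) and AT5G28060 (0.29). The peroxisomal hydroxypyruvate reductase gene *HPR* had 105 and 59 counts in *jmj26*, against 2 and 15 in Col-0. The rows most like the summed eEF1A copies, out of 1873, were the myrosinase gene *TGG1* (AT5G26000, 0.57), the photosystem I subunit gene *PSAD-2* (AT1G03130, 0.59) and the chlorophyll-binding protein gene AT2G34430 (0.62). All 6 were high in both *jmj26* libraries, lower in Col-0 replicate 2 and lowest in Col-0 replicate 1. The summed eEF1A copies, eEF2 and EF-Tu had this order too. Since the 6 rows were chosen for likeness over the same 4 libraries, their order follows from the choice. For the noncoding row opposite EF-Tu only 3 rows were of similar level, and the nearest, AT1G05207 (0.15), is a noncoding RNA gene as well, opposite the chlorophyll-binding protein gene *LHCB6* (AT1G15820). The others, AT1G72600 (0.23) and AT1G55673 (0.30), are annotated as protein-coding.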

How the data were processed

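Per the labels and the study's methods, the authors cleaned reads with fastp, mapped them with STAR (2.7 in the submitters' processing notes) on the Araport11 annotation with several hits per read allowed, and deposited raw TEcount counts of genes and transposon copies. How reads were divided among gene copies and which strand was counted are not given in the sources used here. A gene table made with featureCounts is not used here.

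Labels gave genotype and replicate number. The TAIR10.1 annotation held each of the 36632 gene identifiers and gave positions, exon lengths and opposite-strand overlaps. A row was classed as having an opposite-strand gene if the annotated intervals overlapped by any length. CPM use the sum of gene and transposon rows (31189) as library total. For the test in edgeR 4.0.16 (R 4.3.3), gene rows went through filterByExpr, TMM scaling and glmQLFTest, and p-values were adjusted over 5232 rows. The procedure was tested on simulated data. The standard error is the size of the log2 fold change over the root of F. Intervals and exact tests used scipy 1.17.1.

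The elongation factor genes and the lists were chosen with earlier results of these data known. Named are the 8 rows, rows opposite them, *JMJ26*, of each role of the other translation factors the row with the most counts (none had FDR < 0.05), and the 3 rows nearest to eEF1A, eEF2 and AT4G20362 (prior count 2, within 1 log2 unit). Others were named after their values were seen. DESeq2 1.42.0, other filters and scalings, the replicate block and each library left out were alternatives.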

Additional observations from a re-analysis of the deposited data

How the results depend on the processing

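Without a filter on low counts 592 of 22317 gene rows, 4 of 8 elongation factor rows and 4 of 30 other translation factor rows had FDR < 0.05. The log2 fold change of summed eEF1A was then 2.54, past the threshold. A minimum of 10 counts in all 4 libraries left 0 called gene rows, and 215 at an unadjusted p below 0.05, since rows low in Col-0 were then not tested. DESeq2's Wald test called 13 of 22317 gene rows and 1 of 8 elongation factor rows. Gene and transposon rows fitted together gave 1 of 5232 gene rows. With the replicate block 64 of 5232 gene rows, 1 of 6 elongation factor rows (AT5G60390) and 1 of 10 other translation factor rows were called. Summed eEF1A, at 2.72, passed the threshold there. What libraries of one number have in common is not stated in the labels, and their deviations had a correlation of -0.16 across rows. A crossed pairing, added after seeing the data, called 152 gene rows. With one replicate left out, the 4 fits called 1 to 445 gene rows, 0 to 4 elongation factor rows and 0 to 5 other factor rows, and gave summed eEF1A log2 fold changes from 1.62 to 4.15. Scaling by library totals, by the upper quartile or by the size factors of DESeq2 changed none of these calls. EF-G, at 0.094, was -0.011 without a filter and -0.025 with DESeq2, and from -0.17 to 0.12 with a replicate left out. AT4G20362, at -0.038, was 0.016 under the minimum of 10 counts. With a replicate left out, the share differences of AT1G07920 ran from -8.77 to 7.89 percentage points and those of AT1G07930 from -8.19 to 8.47. Without the noncoding row the plastid share differed by -27.5 percentage points, against -0.41 with it. The cause of these changes was not tested. Counts were low in Col-0, with 0 to 17 for a copy of eEF1A and 2 and 17 for eEF2, and the unstated strand limits what each coding row measures.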
